A study of Mus musculus with 37 samples.

Results

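A group of 10 transcripts of the early liver and endoderm was followed in mouse hearts dissected at E10.5 and measured by bulk paired-end RNA sequencing. The members, 10 of the 25239 genes in the table, were chosen by symbol: Alb, Afp, Apoa1, Apoa2, Apoa4, Apob, Ttr, Trf, Fgb and Hnf4a. The question is how far these transcripts occur in libraries labelled heart and whether they move together. Fathers carried Stra8-iCre and 1 floxed Nipbl allele, and their other Nipbl allele is not given here. Their sperm are taken to hold either the floxed allele, which works, or the deleted FIN allele, which is null. Mothers carried a Cre recombinase gene in 1 Isl1 allele, which leaves 1 working Isl1 allele. The 4 genotypes were wild-type (Nipbl +/+; Isl1 +/+, n = 10), Isl1_het (Isl1 +/-, n = 9), Nipbl_het (Nipbl +/-, n = 9) and double_het (Nipbl +/-; Isl1 +/-, n = 9). Isl1 +/- embryos therefore also carry Cre at the Isl1 locus, and by that account the Nipbl +/+ allele from the father is floxed. In Isl1_het, and in contrasts that use it, loss of 1 Isl1 allele and Cre acting on the floxed Nipbl allele cannot be told apart. Nipbl encodes a loader of cohesin and Isl1 a transcription factor of cardiac progenitors.

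The liver arises from foregut endoderm next to the heart: hepatoblasts bud into the septum transversum, the mesenchyme that also lies against the cardiac inflow. Hepatoblasts and the visceral endoderm of the yolk sac make alpha-fetoprotein (Afp), the main serum protein of the embryo, and hepatoblasts turn on albumin (Alb) early. Hnf4a is a nuclear receptor that drives many hepatocyte genes, and the other members encode proteins secreted into plasma by liver and endoderm: apolipoproteins that carry lipid (Apoa1, Apoa2, Apoa4, Apob), the thyroid hormone carrier transthyretin (Ttr), the iron carrier transferrin (Trf) and the beta chain of fibrinogen (Fgb).

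Libraries held 23356831 to 50974736 counts, and no 2 libraries of a genotype agreed within sampling noise (smallest chi-square per degree of freedom 7.46 over 153 pairs). Each label holds the letters IVF followed by a set number, and the labels do not spell out what they stand for. Set 1 held 6 libraries (3 wild-type and 3 Isl1_het), set 2 held 9, set 5 held 14 and set 6 held 7, the last 3 with all genotypes, and set 7 was double_het replicate 2 alone, which its set term fits exactly. Nipbl fell in Nipbl_het and in double_het (log2 changes -0.74 and -0.82, adjusted p 0.000348 and 7.19e-05, edgeR), but the library labelled Nipbl_het replicate 2 stood at 72.4 CPM (counts scaled to the library total, after TMM scaling), within the wild-type range of 47.6 to 78.8. In Isl1_het Nipbl did not pass (log2 change 0.03, SE 0.11, adjusted p 0.972, edgeR), a bulk level that cannot show loss in a small part of the cells. Isl1 did not pass the test in Isl1_het (log2 change -0.20, SE 0.18, adjusted p 0.877, edgeR) or in double_het (0.32, SE 0.20, adjusted p 0.591), and it rose in Nipbl_het (0.79, SE 0.19, adjusted p 0.0252), so its level does not check the Isl1 +/- labels. The heart label was borne out by the cardiomyocyte genes, whose 10 listed members summed to between 29810 and 45886 CPM. Nothing in the labels says whether libraries come from separate litters, so p-values measure the spread between libraries.

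On the GRCm38 build, Alb (chr5:90460897-90476602) and Afp (chr5:90490737-90508907) are neighbours on the plus strand, as are Apoa1 (chr9:46228580-46230466) and Apoa4 (chr9:46240696-46243459). Apoa2 lies at chr1:171225054-171226379, Apob at chr12:7977648-8016835 and Ttr at chr18:20665280-20674321 on the plus strand. Trf lies at chr9:103204001-103230444 and Fgb at chr3:83040141-83049863 on the minus strand, and Hnf4a at chr2:163506808-163572910 on the plus strand. Afp, Apoa4 and Hnf4a overlap antisense genes and Trf overlaps the gene Gm20425 on its own strand in GENCODE M21. The strand setting of the counting is not given in the sources used here, so their counts may include reads of those neighbours.

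Of the 10 transcripts, 5 were counted in every heart, while Alb, Fgb and Hnf4a were near or at 0 in most. Per kilobase of exon, the median over the 37 libraries was highest for Trf (4.29 CPM per kilobase) and Apoa2 (3.47), followed by Ttr (0.558) and Apoa1 (0.164). Afp (0.0671), Apoa4 (0.0491) and Apob (0.0221) were lower still. Hnf4a stood at 0.00391 and the medians of Alb and Fgb were 0. In raw counts, Trf ran from 161 over a median of 521 to 2290, and Apoa2 from 35 over 69 to 654. Ttr ran from 9 over 23 to 327, Apob from 2 over 12 to 257 and Apoa1 from 2 over 7 to 741. These 5 had at least 1 count in all 37 libraries. By contrast Fgb was at 0 counts in 24 libraries, Alb in 21 and Hnf4a in 18. Apoa4 was at 0 in 6 libraries and Afp in 1. A count of 0 allows up to 3 counts, or 0.0566 to 0.151 CPM depending on the library, and such limits cover counting error only because the reads carry no molecular identifiers. Alb stood at or under 3 counts in 30 of the 37 libraries, Hnf4a in 30 and Fgb in 31.

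A single heart, Nipbl_het replicate 9 of set 2, held most of the Afp and Alb counts of the series. It carried 11560 Afp counts and 989 Alb counts, which were 83.5% of all Afp counts and 85.8% of all Alb counts over the 37 libraries, but only 10.8% of all Trf counts. For 9 of the 10 transcripts it was the highest library, the exception being Apoa4. Its Afp level of 301 CPM compared with a median of 0.214 CPM over the other 36 libraries, a 1403-fold difference, and was 22.2 times the next library. Apoa1 at 19.3 CPM was 95.5-fold above the median of the others, Apob at 6.68 CPM 22.6-fold, Ttr at 8.50 CPM 13.0-fold, Apoa2 at 17.0 CPM 9.29-fold and Trf at 59.6 CPM 4.21-fold. Alb at 25.7 CPM was 14.8 times the next library, Fgb at 11.1 CPM 12.4 times and Hnf4a at 4.14 CPM 6.46 times, while their medians over the other libraries lay under the limit that 0 counts allow. Apoa4 at 0.156 CPM (6 counts) lay within the range of the other libraries. This is 1 library, and the values have no replicate check.

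**Figure D1:**
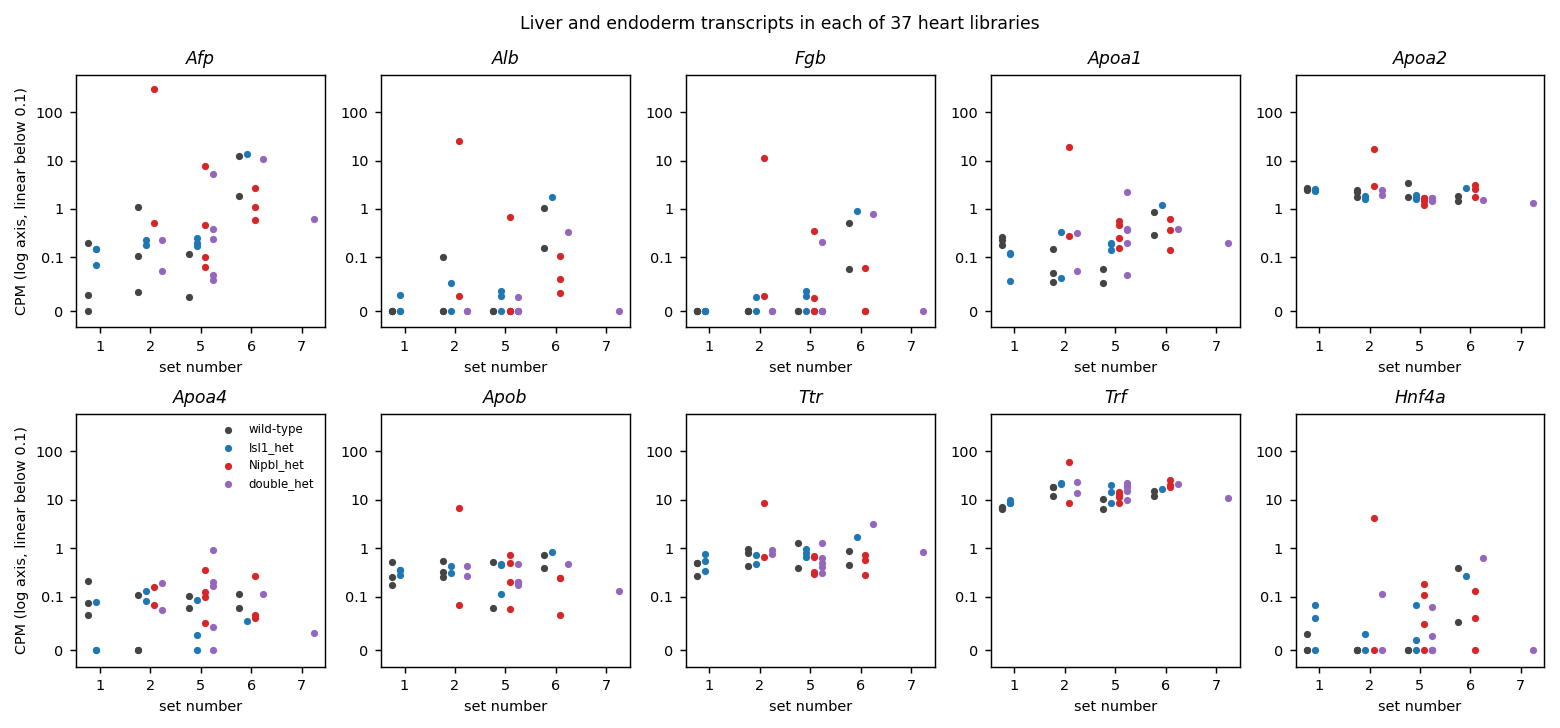
CPM of each transcript in the 37 libraries (vertical axis logarithmic above 0.1 CPM and linear below), by set number and coloured by genotype. Nipbl_het replicate 9 in set 2 stands above every other library for all transcripts but Apoa4, and set 6 is shifted upward for Afp, which ranged there from 30 to 500 counts.

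Below that library, 5 hearts of 4 genotypes had between 204 and 500 Afp counts. Isl1_het replicate 9 had 500 Afp, 64 Alb, 33 Fgb and 10 Hnf4a counts. Wild-type replicate 8 had 441, 37, 18 and 14 counts of the same genes in that order. Double_het replicate 7 had 394, 12, 28 and 23, Nipbl_het replicate 5 had 306, 27, 14 and 7, and double_het replicate 3 had 204, 1, 8 and 1. The first 3 of these belong to set 6 and the last 2 to set 5. Nipbl_het replicate 7 and wild-type replicate 6, both of set 6, followed with 104 and 72 Afp counts and 4 and 6 Alb counts, so that double_het replicate 3 had more Afp but less Alb than either. The lowest Afp count in set 6 was 30, a level that 3 of the 30 libraries outside it reached, and in set 1 no library had more than 6. Depth differed, and in CPM that lowest library, Nipbl_het replicate 6, stood at 0.598. Wild-type replicate 7 of set 2 (22 counts, 1.10 CPM) and double_het replicate 2 of set 7 (19 counts, 0.623 CPM) also lay above it in CPM.

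Shares beside Afp were computed in the 8 libraries with at least 50 Alb plus Afp counts. Their intervals cover counting error within a library and not the spread between hearts, so overlap is a description. Alb made up 7.88% of Alb plus Afp counts in Nipbl_het replicate 9 (exact 95% binomial interval 7.42 to 8.37), 8.11% in Nipbl_het replicate 5 (5.41 to 11.6), 7.74% in wild-type replicate 8 (5.51 to 10.51) and 7.69% in wild-type replicate 6 (2.88 to 16.0). These 4 intervals overlap across a span of Afp counts from 72 to 11560. Isl1_het replicate 9 was higher, at 11.3% (8.85 to 14.3). Double_het replicate 7 was lower, at 2.96% (1.54 to 5.11), and double_het replicate 3 lower again, at 0.488% (0.0123 to 2.69). These intervals do not reach that of Nipbl_het replicate 9. Nipbl_het replicate 7 lay at 3.70% (1.02 to 9.21), which covers it.

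The same heart, double_het replicate 3, had the highest shares of the neighbouring apolipoprotein genes among these 8 libraries. Apoa1 made up 29.9% of Apoa1 plus Afp counts there (24.7 to 35.5), against 6.02% in Nipbl_het replicate 9 (5.61 to 6.46) and 3.43% in double_het replicate 7 (1.89 to 5.69). Nipbl_het replicate 7 lay between, at 18.1% (11.8 to 25.9), with an interval that overlaps that of double_het replicate 3, and wild-type replicate 6 was at 13.3%. The 35 Apoa4 counts of double_het replicate 3 were the most of any library, and Apoa4 made up 14.6% of Apoa4 plus Afp counts (10.4 to 19.8) against 0.0519% in Nipbl_het replicate 9 (0.0190 to 0.113) and 8.77% in Nipbl_het replicate 7 (4.29 to 15.5), whose interval again overlaps. That of wild-type replicate 6, at 4.00% (0.833 to 11.2, from 3 Apoa4 counts), overlaps as well. Double_het replicate 7 had the highest Hnf4a share of the 8, 5.52% of Hnf4a plus Afp counts (3.53 to 8.16), against 1.36% (1.16 to 1.58) in Nipbl_het replicate 9. The intervals of Nipbl_het replicate 7 at 4.59% (1.51 to 10.4), wild-type replicate 8 at 3.08% (1.69 to 5.11) and wild-type replicate 6 at 2.70% (0.329 to 9.42) overlap it. Those of Nipbl_het replicate 5 (0.904 to 4.55) and, narrowly, Isl1_het replicate 9 (0.944 to 3.58) overlap it as well. Only those of Nipbl_het replicate 9 and double_het replicate 3 (0.0123 to 2.69) do not. The Ttr count of 116 in double_het replicate 7 was the second highest of the series. Fgb beside Afp ran from 2.80% in Nipbl_het replicate 7 (0.582 to 7.98) to 6.64% in double_het replicate 7 (4.45 to 9.45), with 3.55% in Nipbl_het replicate 9 (3.22 to 3.89).

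**Figure D2:**
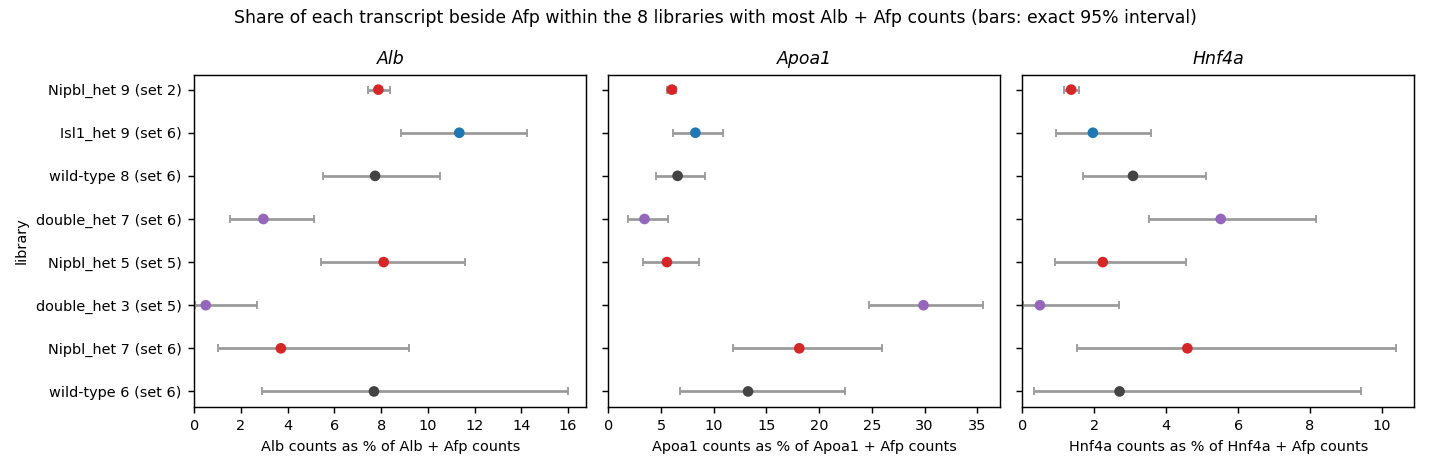
Counts of Alb, Apoa1 and Hnf4a as a percentage of their sum with Afp (horizontal axes) in the 8 libraries with the most Alb plus Afp counts; points are single libraries and bars exact 95% binomial intervals that cover counting error only. Double_het replicate 3 has the lowest Alb share (0.488%) and the highest Apoa1 share (29.9%), and double_het replicate 7 the highest Hnf4a share (5.52%).

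Genes of liver and its neighbours were read in the same libraries from lists of cell type markers. In Nipbl_het replicate 9, 13 of 15 further hepatic secreted protein genes reached their highest level of the 37 libraries. Itih2, which encodes a hyaluronan-binding plasma protein, stood at 1295 counts, Ambp (alpha-1-microglobulin and bikunin) at 935, Serpina6 (the glucocorticoid carrier) at 823, Rbp4 (the retinol carrier) at 798 and Plg (plasminogen) at 357. Apoh and Fetub were the exceptions, with 2 and 3 counts. The summed level of the list was 141 CPM there and between 0.818 and 29.5 CPM in the other libraries. Of the 5 genes of septum transversum and liver mesenchyme, the homeobox genes Lhx2 (346 counts) and Hlx (506) were at their highest there. The other 3 were not: the growth factor gene Hgf stood at 81 counts, Lhx9 at 337 and Reln at 513, against medians over the other libraries of 23, 279.5 and 276.5. The pioneer factors of endoderm Foxa1 (22 counts), Foxa2 (33) and Foxa3 (36) were detected. Of the 10 endoderm and liver transcription factor genes, 3 were at their highest in this library and 1 was at 0. Of the 8 yolk sac genes, Amn (75 counts) and Cubn (55), which form the uptake receptor of visceral endoderm, stood near their medians over the other libraries of 81.5 and 57.5, and Pla2g12b and Spp2 were highest in this library, at 152 and 40.

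Double_het replicate 7 was the highest library for the endoderm transcription factor genes Foxa2 (64 counts), Nr5a2 (84) and Onecut1 (20). It also held 424 Ambp and 443 Itih2 counts but 37 Lhx2 and 41 Hlx counts, where Nipbl_het replicate 9 had 346 and 506. The glucose transporter gene Slc2a2 stood at 48 counts there, against 10 in Nipbl_het replicate 9 and a median of 1. Epithelial genes of the foregut list were high in the same heart, with Epcam at 244, Cldn6 at 181 and Cdh1 at 111 counts. Wild-type replicate 6 had comparable counts of these genes (Cdh1 175, Epcam 168, Cldn6 151) with few hepatic ones (Ambp 9, Itih2 5, Afp 72). The rest of the foregut list differed: 4 of its 9 genes were at 0 in wild-type replicate 6 and 1 in double_het replicate 7. In double_het replicate 3, beside its 204 Afp counts, 5 of the 15 hepatic secreted genes were at 0 (Gc, Itih2, Apoh, Fetub and Serpina6) and Ambp at 1, whereas Rbp4 at 96 and F2 at 12 lay above their medians over the other libraries of 35 and 7. The part of each cell type in the member counts was not tested. In bulk RNA, fewer cells of a type and less RNA per cell cannot be told apart.

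**Figure D3:**
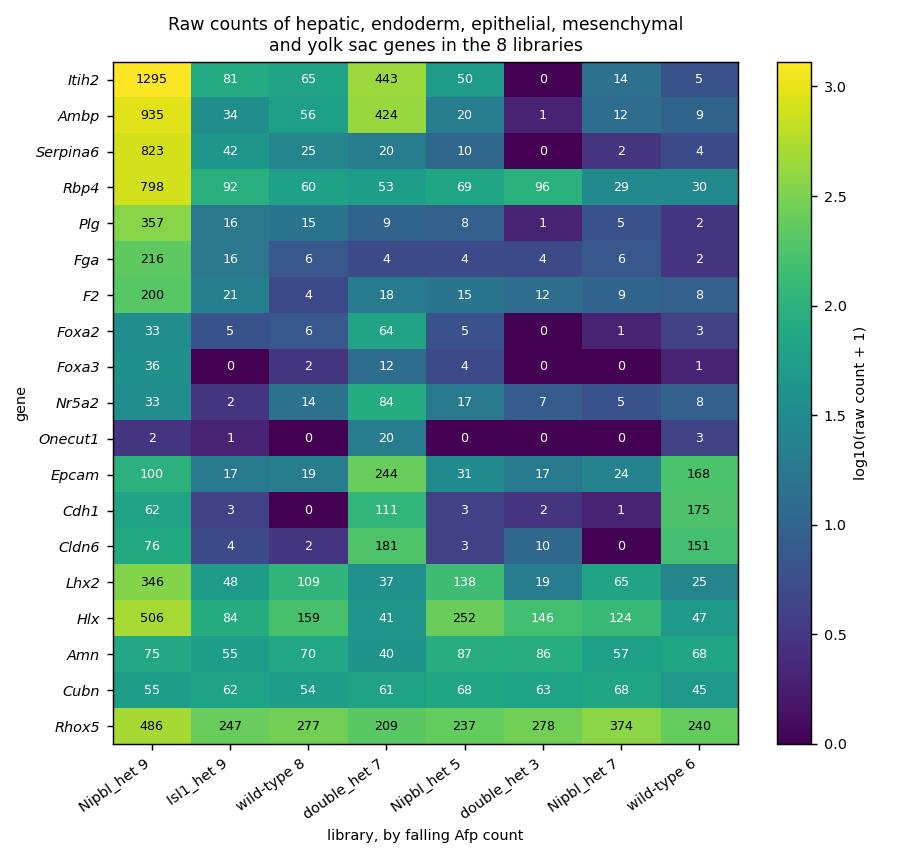
Raw counts of genes from the marker lists (rows) in the 8 libraries with the most Alb plus Afp counts (columns, by falling Afp count), coloured by log10(count + 1). Hepatic genes peak in Nipbl_het replicate 9 (Itih2 1295), Foxa2, Nr5a2, Onecut1, Epcam and Cldn6 in double_het replicate 7 (Epcam 244), and the yolk sac gene Amn ranges only from 40 to 87.

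Across the 37 libraries, the 15 pairs of members that passed by rank all lay among Alb, Afp, Fgb, Hnf4a, Apoa1, Apob and Ttr, though not every pair of these passed (Afp and Apob, rho 0.24, adjusted p 0.330, permutation test). Correlations were computed on log2 CPM for all 45 pairs, with permutation p-values adjusted over the pairs, and libraries of a set share their set number. Alb and Fgb gave a Spearman rho of 0.80 and a Pearson r of 0.95, Alb and Afp 0.78 and 0.90, and Afp and Fgb 0.73 and 0.92. The raw p of each was 1e-05, the smallest that 100000 permutations can give, with an adjusted p of 0.00015 for rho and 4.09e-05 for r. Apoa1 followed Fgb (rho 0.65, r 0.83, raw p 3e-05 and 1e-05, adjusted p 0.00027 and 4.09e-05) and Afp (rho 0.64, r 0.81, the same p-values). Hnf4a followed Fgb (rho 0.61, r 0.89, raw p 0.00011 and 1e-05, adjusted p 0.000825 and 4.09e-05). Apob passed with Hnf4a (rho 0.55, r 0.76, adjusted p of rho 0.00257, permutation test), Alb (0.50, 0.78, 0.00810) and Fgb (0.49, 0.76, 0.00810). Ttr passed with Afp (0.46, 0.72, 0.0163) and Fgb (0.43, 0.79, 0.0254), and Apoa1 with Hnf4a more weakly (0.41, 0.71, 0.0373). Over the 45 pairs 10 had a rho over 0.5, and 35 were positive. The adjusted p was under 0.05 in 15 pairs by rho and in 36 by r, and the medians were 0.23 and 0.53.

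Every negative rho was in a pair with Apoa2 or Apoa4. Trf was not lower throughout: Alb with Trf gave a rho of 0.37 (adjusted p 0.0716, permutation test), against 0.35 for Alb with Ttr (adjusted p 0.0901). Afp with Apoa2 gave a rho of -0.06 (adjusted p 0.834, permutation test), Afp with Apoa4 -0.08 (adjusted p 0.736) and Afp with Trf 0.22 (adjusted p 0.345). Their Pearson r was larger, at 0.41, 0.16 and 0.46 (adjusted p 0.0317, 0.376 and 0.00934, permutation test), so that Afp passed by r with Apoa2 and with Trf. No pair that contained Apoa2, Apoa4 or Trf passed by rho.

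Much of the Pearson correlation rested on Nipbl_het replicate 9. Without it 18 pairs passed by r and 13 by rho, and without it and the 7 libraries of set 6, 5 and 3. Leaving out for each pair the 2 libraries farthest from the median of its first gene moved the median r from 0.53 to 0.20 and the median rho from 0.23 to 0.15. Alb with Afp kept an r of 0.84 and a rho of 0.74 without those 2, Alb with Fgb 0.86 and 0.75, and Afp with Apoa1 0.65 and 0.58. Within sets, the rho of Alb and Afp was 0.39 in set 1, 0.89 in set 2, 0.54 in set 5 and 0.93 in set 6. Afp and Apoa1 gave -0.20, 0.57, 0.63 and 0.93 in the same order. The median over pairs was -0.07 in set 1, where counts of Alb, Fgb and Hnf4a did not exceed 3 and 36 pairs had a value, and 0.33, 0.14 and 0.32 in sets 2, 5 and 6.

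**Figure D4:**
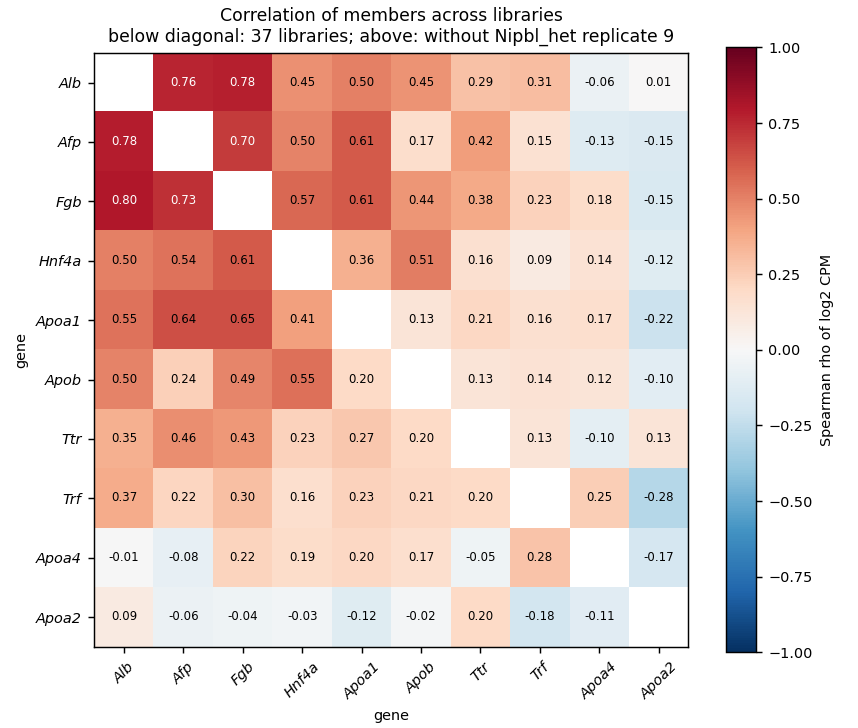
Spearman rho of log2 CPM for the 45 pairs of transcripts, over 37 libraries below the diagonal and without Nipbl_het replicate 9 above it. The highest value is that of Alb and Fgb (0.80, and 0.78 without that library), and the highest with Apoa2 or Apoa4 over all libraries is 0.28.

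The promoters of Alb, Afp and Fgb are shown because these 3 genes had the highest correlations with each other. RefSeq promoter windows on GRCm38.p6 were matched for 8 of the 10 members, Apoa2 and Hnf4a with a pair of starts each, and the 250 bases before the start were searched on both strands for CAAAGTCCA, a motif bound by HNF4 proteins. Capitals would mark a match. Each sequence is given from 5′ to 3′ along its gene.
Alb promoter (chr5:90460620-90460869, plus strand): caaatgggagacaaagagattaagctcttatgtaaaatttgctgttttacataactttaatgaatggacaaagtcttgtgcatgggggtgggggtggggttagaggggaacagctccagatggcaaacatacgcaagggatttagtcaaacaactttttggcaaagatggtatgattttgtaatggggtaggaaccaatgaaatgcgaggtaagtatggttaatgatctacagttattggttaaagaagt
Afp promoter (chr5:90490464-90490713, plus strand): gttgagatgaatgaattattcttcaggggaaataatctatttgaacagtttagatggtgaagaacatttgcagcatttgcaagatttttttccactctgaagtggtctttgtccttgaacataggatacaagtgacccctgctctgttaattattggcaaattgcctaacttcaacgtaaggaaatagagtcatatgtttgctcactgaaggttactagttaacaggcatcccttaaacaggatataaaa
Fgb promoter (chr3:83049864-83050113, minus strand): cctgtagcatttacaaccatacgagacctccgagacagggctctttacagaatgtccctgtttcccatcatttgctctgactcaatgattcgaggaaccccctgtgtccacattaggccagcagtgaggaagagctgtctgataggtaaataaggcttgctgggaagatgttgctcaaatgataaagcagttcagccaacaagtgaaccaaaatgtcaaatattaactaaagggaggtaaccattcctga

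The motif was in none of the 10 windows of the members and in 0.384% of all 32851 promoter windows of that length. The result says only that these letters are not in these windows.

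Afp was also set beside the summed level of each of the 12 marker lists over the 37 libraries. It rose with the hepatic secreted list (rho 0.54, r 0.82, adjusted p 0.00207 and 0.00012, permutation test adjusted over the lists) and with the septum transversum and liver mesenchyme list (rho 0.59, r 0.66, adjusted p 0.0006 and 0.00012). The inflow tract list gave 0.59 and 0.53 (adjusted p 0.0006 and 0.00147). The cardiomyocyte list ran the other way (rho -0.70, r -0.56, adjusted p 0.00012 and 0.00116), and both are shares of the same library total. Without the 2 farthest libraries the r was 0.67, 0.58, 0.51 and -0.63 for these lists. Within sets the cardiomyocyte relation was 0.03, -0.47, -0.55 and 0.00 in sets 1, 2, 5 and 6, and that of the septum transversum list -0.09, 0.68, 0.29 and 0.79. The inflow tract list gave -0.20, 0.78, 0.15 and 0.25, and the hepatic list 0.66, 0.38, 0.35 and 0.79. The endoderm and liver transcription factor list passed by r alone (r 0.50, adjusted p 0.0140, permutation test, and 0.30 without the 2 farthest libraries; rho 0.08, adjusted p 0.684). None of the other lists had an adjusted p under 0.05 by either measure, among them yolk sac (-0.14), foregut epithelium (0.07) and erythroid cells (0.33, adjusted p 0.0930). The lipoprotein list ran against Afp without passing (rho -0.37, r -0.17, adjusted p 0.0592 and 0.380, permutation test).

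Of the 15040 tested genes outside the members, the 10 with the highest median rho to the 6 members that passed the count filter lay between 0.40 and 0.46. They were Slc1a4, Reln, Serpinf2, D17H6S56E-5, Pros1, Endod1, Crim1, Ncapd3, Casp2 and Fam234b. Serpinf2, which encodes the plasmin inhibitor of plasma, ran from 0 to 995 counts with its maximum in Nipbl_het replicate 9 and had a rho of 0.67 with Afp. Gene by gene, the closest were Zscan30 for Afp (0.75), Calcr for Apoa1 (0.66), Stk10 for Apob (0.64) and Depdc1b for Ttr (0.62). Trf was closest to the laminin gene Lamc3 (0.87), and Apoa2 to the respiratory chain subunit gene Ndufb5 (0.83). For Apoa2 16.3% of tested genes had a rho of at least 0.5, for Trf 4.82% and for Afp 1.07%. The libraries share depth and set, and these values are a description.

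Across genotypes the question is whether loss of Nipbl, of Isl1 or of both altered these transcripts. Among 15046 genes that passed the filter on low counts were 6 members: Afp, Apoa1, Apoa2, Apob, Ttr and Trf. None of the 6 passed in Isl1_het (background 0% of genes called), Nipbl_het (1.71%) or double_het (2.60%) against wild-type (edgeR, quasi-likelihood, p adjusted by Benjamini-Hochberg). Before adjustment 1, 4 and 1 members had a p under 0.05, where 5.89%, 15.1% and 11.6% of all tested genes did. None passed in double_het against Isl1_het (0.957%), double_het against Nipbl_het (0%) or the interaction (0%). The same held for Nipbl loss averaged over Isl1 genotypes (4.02%) and Isl1 loss averaged over Nipbl genotypes (0.173%). DESeq2 called 1 member, Apoa1, in Nipbl_het and in averaged Nipbl loss, and 0 in the other 6. The shares above are those of edgeR, and the share of all genes called by DESeq2 is not given here. DESeq2 gave Afp no adjusted p in the comparisons with wild-type. With any 1 of the 37 libraries left out, the library labelled Nipbl_het replicate 2 among them, edgeR still called 0 members in Nipbl_het and in double_het against wild-type. Some other edgeR settings did call members in Nipbl_het. These were Afp and Apoa1 without set 6 (adjusted p 0.0272 and 0.0466), Apoa1 without the set term (0.0209) and Trf with a replicate block in its place (0.0369). The block also called Trf in double_het (adjusted p 0.0342, edgeR).

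Afp ran from 0 over a median of 0.113 to 12.4 CPM in wild-type hearts, from 0.0851 over 0.183 to 13.6 in Isl1_het, from 0.0819 over 0.598 to 301 in Nipbl_het and from 0.0575 over 0.241 to 11.0 in double_het. The ranges overlapped throughout. The edgeR estimate for Nipbl_het was a log2 change of 4.84 (SE 1.64, adjusted p 0.129), and without Nipbl_het replicate 9 it was 0.89 (adjusted p 0.756). Set by set, mean log2 CPM in Nipbl_het less that in wild-type came to 5.65 in set 2, 2.20 in set 5 and -1.92 in set 6. In double_het the fitted change was 2.22 (SE 1.60, adjusted p 0.663, edgeR), or 0.54 without double_het replicate 3, and the differences within the same sets were -0.43, 1.73 and 1.17.

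Apoa1 followed the same course in Nipbl_het, with a fitted change of 2.73 on the log2 scale (SE 1.00, edgeR adjusted p 0.16997) that was 0.37 without replicate 9. Apob (0.97, SE 0.61), Ttr (0.76, SE 0.53) and Apoa2 (0.68, SE 0.31) had adjusted p-values of 0.468, 0.515 and 0.287. Without that library their estimates were -0.65, -0.50 and -0.03, so their direction rested on it. The 6 estimates were all positive in Nipbl_het, with a median of 0.87 against 0.01 over all tested genes.

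Trf had the most even genotype differences. Its mean was 11.4 ± 4.77 CPM in wild-type (SD, n = 10), 14.6 ± 5.77 in Isl1_het (SD, n = 9), 19.96 ± 15.87 in Nipbl_het (SD, n = 9) and 17.1 ± 4.88 in double_het (SD, n = 9). These means are not adjusted for set, and set 1, where mean Trf was lowest (7.97 CPM), held no Nipbl_het or double_het library. The log2 changes against wild-type were 0.50 (SE 0.23, adjusted p 0.835), 0.64 (SE 0.24, adjusted p 0.174) and 0.70 (SE 0.26, adjusted p 0.190, edgeR). All 10 differences from wild-type that could be formed within a set were positive, for instance 0.50, 0.51 and 0.62 for Nipbl_het in sets 2, 5 and 6. The comparisons share the wild-type libraries. Without Nipbl_het replicate 9 the Nipbl_het change was 0.22. The positive difference in set 2 rested on that library: the 2 Nipbl_het libraries there stood at 59.6 and 8.64 CPM, and the latter lies below all 3 wild-type libraries of the set (12.0, 18.4 and 18.7 CPM).

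**Figure D5:**
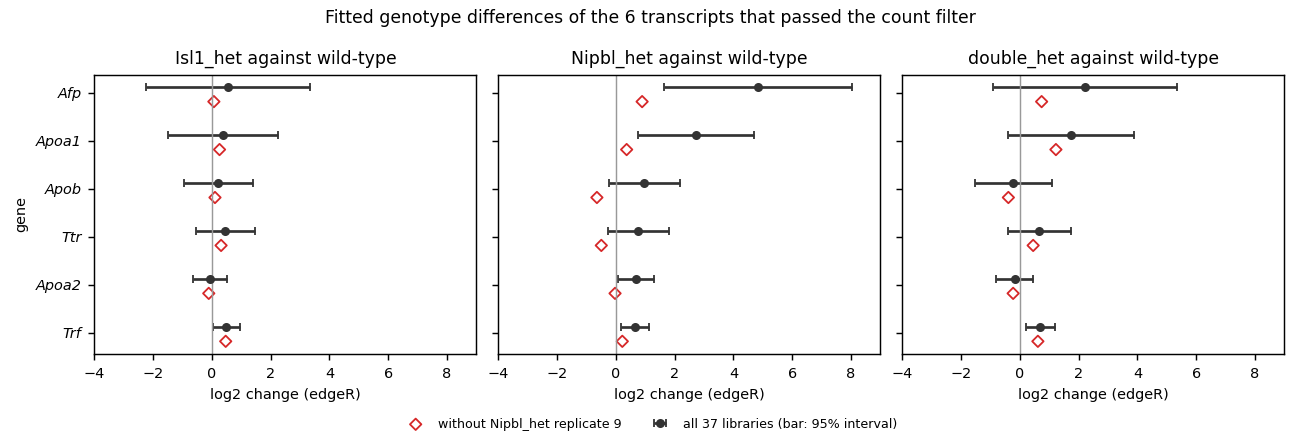
Fitted log2 change (horizontal axis) of the 6 transcripts that passed the count filter in each heterozygote against wild-type; filled points with 95% intervals use all 37 libraries and open diamonds leave out Nipbl_het replicate 9. In Nipbl_het the Afp estimate moves from 4.84 to 0.89 and those of Apob, Ttr and Apoa2 move from above 0 to below it.

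Alb, Fgb, Hnf4a and Apoa4 did not pass the filter. In a fit of all genes with no filter, their log2 changes in Nipbl_het against wild-type were 4.54 for Alb (adjusted p 0.125, edgeR), 4.18 for Fgb (adjusted p 0.216), 3.47 for Hnf4a (adjusted p 0.148) and 0.60 for Apoa4 (adjusted p 0.737). The means of Alb, Fgb and Hnf4a in Nipbl_het were set by replicate 9, as the medians show: Alb had a median of 0.0330 CPM and a maximum of 25.7, Fgb 0.0248 and 11.1, and Hnf4a 0.0598 and 4.14. In wild-type and double_het the medians of all 3 were 0.

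Among the marker lists, the liver mesenchyme factor Hlx passed in Nipbl_het (log2 change 1.68, SE 0.45, adjusted p 0.0449, edgeR), 1 of 5 tested genes of the septum transversum list where 1.71% of all genes passed. Its median was 1.20 CPM in wild-type and 3.28 in Nipbl_het, with overlapping ranges of 0.267 to 4.45 and 1.24 to 13.2. The second highest library, at 10.6 CPM, was Nipbl_het replicate 2, whose Nipbl level lay within the wild-type range. These medians are not adjusted for set: the wild-type libraries of set 1, which held no Nipbl_het library, stood at 0.267 to 0.818 CPM. Without Nipbl_het replicate 9 the change was 1.39 with an adjusted p of 0.142, and the call was lost in 26 of the 37 fits that left out 1 library. In double_het, where 2.60% of all genes passed, 1 of 5 genes of that list passed, the LIM homeobox gene Lhx9 (0.60, SE 0.16, adjusted p 0.0345). Of the 7 epicardial and mesothelial genes, which mark the tissue that grows onto the heart from the septum transversum region, 1 passed in Nipbl_het (Wt1, 0.31, SE 0.07, adjusted p 0.0178) and 5 in double_het. The latter were led by Wt1 (0.53, SE 0.08, adjusted p 6.05e-05), Upk3b (0.72, SE 0.12, adjusted p 0.000503) and Sema3d (0.73, SE 0.17, adjusted p 0.0109). None of the tested hepatic secreted (2), endoderm factor (3), foregut (4), yolk sac (5), lipoprotein (5) or erythroid (8) genes passed in any of the 3 heterozygotes against wild-type. Among these lists, Nipbl loss averaged over Isl1 genotypes had 1 call, the yolk sac gene Pla2g12b (0.56, SE 0.16, adjusted p 0.0344, edgeR). That was 1 of 5 tested yolk sac genes, where 4.02% of all genes passed.

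Some members passed the test between sets. With genotype in the model, 3 of 6 members varied among sets 1, 2, 5 and 6 (Trf, adjusted p 0.00122; Afp, 0.00871; Apoa2, 0.0293; edgeR), against a background of 43.0% of all genes, so the share is near that of genes at large. Afp was at 0 to 6 counts in set 1, with a median of 4, and at 30 to 500 with a median of 104 in set 6, and the ranges did not overlap. Set 6 exceeded set 1 for Afp (log2 change 5.39, SE 1.97, adjusted p 0.0404) and Trf (1.01, SE 0.30, adjusted p 0.0124), 2 of 6 members where 26.6% of genes passed, 14.8% upward. Left out in turn, 8 libraries of sets 1 and 6 ended the Afp call, which ranged from 4.05 without Isl1_het replicate 9 (adjusted p 0.187) to 5.74 without wild-type replicate 2. Trf was also higher in set 2 than in set 1 (1.29, SE 0.28, adjusted p 0.00378), 1 of 6 members where 6.85% of genes passed, 4.28% upward. Its raw counts were 211 to 326 in set 1 with a median of 264.5, and 239 to 2290 in set 2 with a median of 684.

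Set 5 lay below set 2 for Apob (-1.43, SE 0.54, adjusted p 0.0398), Ttr (-1.24, SE 0.47, adjusted p 0.0412), Apoa2 (-0.90, SE 0.28, adjusted p 0.0141) and Trf (-0.80, SE 0.21, adjusted p 0.00586), 4 of 6 members where 33.5% of genes passed, 16.7% downward. All 4 calls were lost without Nipbl_het replicate 9, with estimates of 0.14, -0.10, -0.29 and -0.43 and adjusted p-values of 0.808, 0.847, 0.143 and 0.0638 in the same order. No member passed in set 5 against set 1 (22.2%), set 6 against set 2 (23.3%) or set 6 against set 5 (0.930%). Without Nipbl_het replicate 9, set 6 exceeded set 2 for Afp (4.50, adjusted p 0.00339) and Apoa1 (1.81, adjusted p 0.0369, edgeR). The share of all genes that passed in that fit is not given here, and it was 23.3% with all libraries.

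Blood moved with the sets as well. All 8 tested erythroid genes, among them the embryonic globins Hbb-y and Hba-x, fell in set 5 against set 2, where 16.7% of all genes fell, with a median log2 change of -2.19, and the summed level of the 10 listed genes ran from 502 to 32861 CPM in set 5 and from 2715 to 106530 in set 2. With the mean erythroid level as a covariate only Trf still passed among sets, but the fitted changes of the lost pairwise calls moved less. Afp in set 6 against set 1 went from 5.39 to 4.48 on the log2 scale. In set 5 against set 2, Apob went from -1.43 to -1.29, Ttr from -1.24 to -0.98 and Apoa2 from -0.90 to -0.88. The part of blood in the member differences was not otherwise tested. In set 6 against set 1, where 26.6% of all genes passed, 5 of 7 epicardial genes were higher (for instance Sema3d, 1.07, SE 0.20, adjusted p 0.000183), and 4 of 10 cardiomyocyte genes lower (for instance Nkx2-5, -0.75, SE 0.09, adjusted p 4.14e-07). The labels do not spell out what the IVF set number stands for, so the sets and what differed between them cannot be told apart.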

How the data were processed

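Raw counts, not normalized, were deposited as a single table of gene symbols by libraries. Per the submitters' processing notes, the reads were handled with STAR and featureCounts on GRCm38 (mm10); versions, annotation and strand setting are not given in the sources used here. RNA came from a Monarch kit and libraries from an NEBNext Ultra II kit, per the labels. All 37 columns matched a label, and 0 other columns were present.

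Genes were filtered with filterByExpr by genotype (minimum count 10, total 15), which kept 15046 of 25239. Counts were scaled by TMM and fitted on genotype plus set number by the edgeR 4.0.16 quasi-likelihood method (R 4.3.3). Tests were two-sided, adjusted by Benjamini-Hochberg over all genes, at a threshold of 0.05. CPM uses TMM factors, and log2 CPM a prior count of 2. Correlations used 100000 permutations. Exon lengths and coordinates come from GENCODE M21, promoters from RefSeq GRCm38.p6. List sums are sums of CPM. Fits were tested on simulated data. Python 3.11.15, scipy 1.17.1 and DESeq2 1.42.0 were also used.

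The members, marker lists, tests and most alternatives were chosen with earlier results of these data known; the alternatives without Nipbl_het replicate 9, with set 6 left out beside it, and of the set tests with the erythroid covariate or a set left out were added after seeing the counts. Genes named beyond the members were list genes past the threshold, up to 3 a list with the smallest p, and those most alike in pattern. List genes whose raw counts are given for single libraries, and Serpinf2 with its values, were chosen after those were seen.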

Additional observations from a re-analysis of the deposited data

Results flagged for a closer look

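Each gene was examined in each genotype for a library whose distance to its nearest neighbour was large against the range of its group, by Dixon's criterion at the 95% level. Of 40 groups 29 held such a library. The criterion picks about 1 in 20 groups of normally distributed values, but these CPM are skewed and often 0, and the transcripts share libraries, so that rate does not hold here. All values are CPM, all are the highest of their group, and in 28 of the 29 the library was 1 of 5 named in the report.

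Nipbl_het replicate 9 stood apart for 9 transcripts: Afp at 301, Trf at 59.6, Alb at 25.7, Apoa1 at 19.3, Apoa2 at 17.0, Fgb at 11.1, Ttr at 8.50, Apob at 6.68 and Hnf4a at 4.14. Isl1_het replicate 9 stood apart for 7: Afp at 13.6, Alb at 1.74, Ttr at 1.68, Apoa1 at 1.22, Fgb at 0.895, Apob at 0.841 and Hnf4a at 0.271. Wild-type replicate 8 did so for 5: Afp at 12.4, Alb at 1.04, Apoa1 at 0.869, Fgb at 0.504 and Hnf4a at 0.392. Double_het replicate 7 did so for 5: Afp at 11.0, Ttr at 3.23, Fgb at 0.780, Hnf4a at 0.641 and Alb at 0.334. Double_het replicate 3 did so for Apoa1 at 2.27 and Apoa4 at 0.913. Wild-type replicate 1 did so for Apoa4 at 0.212, a value of 7 counts. Afp, Alb, Fgb and Hnf4a each had such a library in all 4 genotypes.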

How the results depend on the processing

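Of 231 values of single genes under other settings, 205 kept their direction and side of the threshold. In Nipbl_het and in averaged Nipbl loss, 1 member passed without the set term (Apoa1), 1 with a replicate block in place of the set term (Trf), 1 with DESeq2 (Apoa1) and 2 without set 6 (Afp and Apoa1). In double_het 1 passed with the replicate block (Trf, log2 change 0.74, adjusted p 0.0342, edgeR). Same-numbered libraries share only a number: 12 of 54 such pairs had a correlation over 0.1, and 3 of 36 libraries correlated best with their own number. With the block the genes called went from 258 to 355 in Nipbl_het, from 391 to 610 in double_het, from 605 to 993 in averaged Nipbl loss and from 26 to 9 in averaged Isl1 loss. Without the set term they were 467, 570, 1045 and 0, and without Nipbl_het replicate 9 they were 167, 360, 502 and 41. For DESeq2 and for the fits without set 6 the genes called are not given here, so those member calls have no share beside them.

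Among sets, 6 members passed without a count filter (Alb, Fgb and Hnf4a joining, adjusted p 0.00391, 0.0238 and 0.0313, edgeR), 6 without the genotype term, and 1 with the erythroid covariate, without set 5 or without set 6. Leaving out 1 library gave 2 to 4. In the main fit 43.0% of all genes passed among sets. The shares of all genes under these settings, and for the pairwise calls below, are not given here. These counts are therefore not a result about the members. The pairwise calls numbered 12 without the genotype term, 3 with the erythroid covariate and 5 to 10 with 1 library left out. The changes whose calls ended with the covariate were of similar size. In set 5 against set 2, for instance, Ttr went from -1.24 to -0.98 and Apoa2 from -0.90 to -0.88. In set 5 against set 2, 15 of 37 omissions ended the Ttr call and 5 the Apob call, whose change ranged from -1.58 to 0.14. Pairs correlated by r numbered 22 after centring within sets and 22 within sets and genotypes, 18 without Nipbl_het replicate 9, and 5 also without set 6, where 3 passed by rho.

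Apart from Apob in set 5 against set 2, directions that turned were of changes that had not passed. In Isl1_het these were Afp (-2.26 with the replicate block, -0.41 with the erythroid covariate, -1.44 to 2.15 with 1 library left out), Apoa1 (-0.43 with the block, -0.62 to 0.99), Apob (-0.094 with the block, -0.10 to 0.41) and Apoa2 (0.033 without set 5, -0.22 to 0.14). In Nipbl_het without set 2 they were Apoa2 (-0.17, and -0.028 to 0.89 with 1 library left out), Apob (-0.53, -0.65 to 1.19) and Ttr (-0.56, -0.50 to 1.11). In double_het Apoa1 was -0.52 without set 5, and Apoa2 ranged from -0.26 to 0.086 and Apob from -0.43 to 0.033 with 1 library left out. The cause was not tested. Alb, Fgb, Hnf4a and Apoa4 lie near the counting limit in most libraries, which limits the precision of their differences.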
